A study of Mus musculus with 7 samples.

Results

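The libraries described here came from mouse embryos held under a block of FGF receptors and given no inducer of ERK. They are the 3 libraries labelled vehicle among the 7 of the series, namely clone4_1, clone4_2 and clone8_1. The treatment label defined the group, and earlier results of these data were known when it was chosen. All 7 libraries came from Sox2Cre;CRAFR26 embryos, which carry a tamoxifen-inducible cRAF construct and Cre recombinase under Sox2 regulatory sequence. The line was made by injecting morulas with embryonic stem cells that held the construct, from clones 4 and 8. They were collected by flushing at embryonic day 2.5 and then kept 24 h in KSOM medium with 250 nM PD173074, an inhibitor of the FGF receptor kinases. The vehicle group then had ethanol for 4 h and carries the time label 0 h, and the other 4 libraries had tamoxifen in its 4-hydroxy form instead. The trophectoderm, the outer epithelium of the blastocyst, was taken off by immunosurgery, and RNA from a pool of 10 inner cell masses (ICMs) made each library from 2 ng of input. A pool is therefore an average over embryos, and the labels call it epiblast at embryonic day 3.5. One further sample at 0 h had been discarded at quality control, per the series text. Clone 8 has 1 vehicle library, so that clone and that library cannot be told apart. The labels do not say whether the 2 clone 4 pools came from separate litters or days, so the spread given here is between pools. The vehicle group is described on its own, and no treatment is compared.

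The ICM gives rise to the naive epiblast, which forms the embryo proper, and to the primitive endoderm, which forms yolk sac tissue. In the mouse blastocyst, epiblast precursors secrete FGF4, which acts through FGFR1 and FGFR2 on their neighbours and, by way of Ras, Raf, MEK and ERK, sustains GATA6 and the endoderm programme at the expense of NANOG. Inhibitors of FGF receptors or of MEK are known to shift ICM cells towards the epiblast. ERK also switches on its own brakes, among them the Sprouty and Spred proteins and the Dusp phosphatases, as well as early response genes such as Fos, Egr1 and the ETS factor Etv5.

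Levels are given in CPM, counts scaled to a common library total, after TMM scaling among the 3 libraries, which corrects the library totals for a few genes that take up many reads. Values of one gene are listed in the order clone4_1, clone4_2, clone8_1, and an error is the SD over these libraries (n = 3). Where different genes are compared, CPM was divided by the length of the gene's typical transcript in kilobases (CPM per kb). A gene is called expressed where it had at least 1 CPM in each library. Total counts were 40891273, 32536646 and 40054981. At these depths 3 counts, the limit that a count of 0 allows, correspond to 0.0743, 0.0933 and 0.0731 CPM, and this covers counting error only. Of 21896 protein-coding genes, 10291 (47.0%) were expressed and 5930 had no count in any library. Each count of expressed list members is to be read beside this 47.0%. Among the expressed genes the median mean level was 31.1 CPM, 2297 genes reached a mean of 100 CPM and 101 reached 1000 CPM.

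One library stood apart in transcript length. Genes with a typical transcript under 1000 nt, called short here and marked as such wherever they are named, took 16.9% of the counts in clone4_1, 14.8% in clone4_2 and 6.84% in clone8_1. Over the 692 short genes that averaged 10 CPM or more over clone4_1 and clone4_2, the median level in clone8_1 was 1.48 lower on the log2 scale than the clone 4 mean (log2 difference -1.48). Over the 7104 longer genes the median difference was 0.10. The deficit deepened as transcripts shortened. The median log2 difference was -0.27 at 1000 to 1200 nt, -0.91 at 800 to 1000 nt, -1.67 at 600 to 800 nt and -2.38 at 400 to 600 nt. From 1200 nt upwards each class had a median between 0.065 and 0.17. The clone 4 libraries differed from each other in the same direction but by less, with a median log2 difference of clone4_2 from clone4_1 of -0.38 at 400 to 600 nt. Among the 824 expressed short genes clone8_1 was the lowest library in 712 (86.4%), against 29.8% of the 9467 longer ones. Values of short genes in clone8_1 are given as measured, and every level or difference that rests on them carries the mark.

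**Figure D1:**
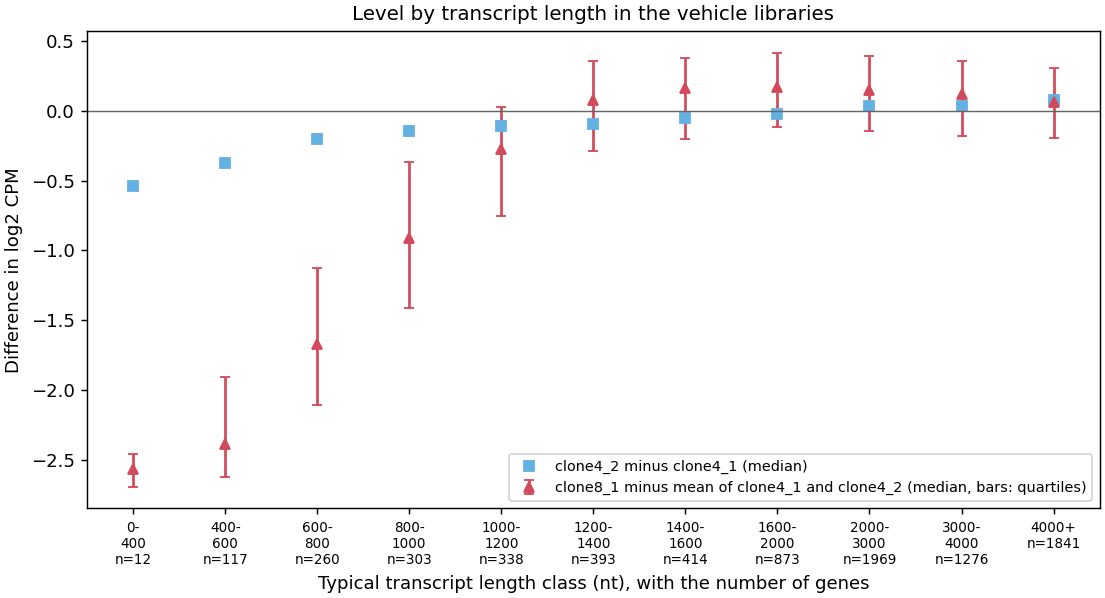
Median difference in log2 CPM by class of typical transcript length (x axis, nt, with the number of genes); triangles show clone8_1 against the mean of the clone 4 libraries with bars to the quartiles, squares clone4_2 against clone4_1. The triangles fall from near 0 above 1200 nt to -2.38 at 400 to 600 nt and -2.57 under 400 nt (12 genes), and the squares stay between -0.54 and 0.079.

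The cytoplasmic ribosomal proteins, which build the translation machinery and are mostly encoded by short mRNAs, showed this deficit. Of 80 such genes 79 were expressed, 61 were short, and clone8_1 was the lowest library in 77 of the 79. Together they took 6.26%, 5.43% and 2.20% of counts. Rps14 (short) stood at 1663, 1289 and 289 CPM, and Rpl13 (short) at 1766, 1599 and 462 CPM. The longer Rpl4 stood at 3033, 2871 and 3490 CPM, with clone8_1 the highest. Other abundant short genes that were low in clone8_1 included Tmsb10, which sequesters actin monomers, and Mt1, a metallothionein. The clone 4 mean exceeded clone8_1 by 8.36-fold in the former and 7.38-fold in the latter. Ptma (short), a small acidic chromatin protein, stood at 3850.2, 3114 and 3469 CPM, and its clone 4 mean was 1.00 times clone8_1. Its longest annotated transcript is 1216 nt, so its mark depends on the length measure.

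The highest levels per kilobase belonged to a mixed set of genes. The 10 highest protein-coding genes were, in order, Ptma (short) at 4528 ± 479.5 CPM per kb, mt-Cytb, Eif5a, Calcoco2, mt-Nd1 (short), Dppa5a (short), Dppa3 (short), Actb, Psap and mt-Co1 at 2775 ± 535 CPM per kb. Each step in this order was smaller than the larger SD of the pair, and 4 of the 10 genes are short, so their means are affected by clone8_1. On the means of the clone 4 libraries alone Dppa5a (short) came first at 4941 CPM per kb, ahead of Ptma (short) at 4534 CPM per kb, and Pfn1 (short), which binds actin monomers, took the place of mt-Co1. With the longest transcript as the length Ptma stood at 2860.0 CPM per kb, in place 8. Both of these orders were added after the data were seen. Eif5a, a translation elongation factor that carries hypusine, reached 4508, 4770.5 and 6289.7 CPM. Calcoco2, an autophagy receptor also known as NDP52, reached 3857, 5021 and 6001 CPM. Both were lowest in clone4_1 and highest in clone8_1, the highest library being 1.40 and 1.56 times the lowest.

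By CPM alone, which measures the share of reads, Psap led with 7544, 8933 and 8208 CPM. Psap encodes prosaposin, the precursor of the saposins that help lysosomal enzymes break down sphingolipids, and Gm2a, a lysosomal cofactor for ganglioside breakdown, was also among the 20 highest at 3022, 3978 and 2544 CPM. The chaperones Hspa8, Hsp90ab1 and Hsp90aa1 had 5678 ± 1078, 4864 ± 869.7 and 4655 ± 709 CPM. Translation factors filled 4 of these 20 places (Eif5a, Eef1a1, Eif4a1 and Eif2s2). The paired keratins Krt18 and Krt8 stood 14th and 17th, and Npm1, the nucleolar protein nucleophosmin, 20th. The 10 most abundant genes took 4.71%, 5.27% and 5.64% of counts, and 692, 692 and 671 genes made up 50% of them.

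Genes that mark pluripotent cells in general were abundant. All 12 of the list were expressed, with a median over members of 8.15 log2 CPM, where the median over all protein-coding genes was 0.077 and over expressed ones 4.92. Pou5f1, the POU factor that the ICM requires, stood at 572, 547 and 592 CPM (570.1 ± 22.6). These values lay close together, with no library apart. Dppa2, a chromatin-associated partner of Dppa4, stood at 786, 1111 and 1313 CPM. Dppa4 stood at 243, 214 and 347 CPM. Both had their highest value in clone8_1. Utf1, a chromatin factor of undifferentiated cells, had 216, 240.3 and 249 CPM. Sall4, a zinc finger partner of POU5F1, had 233, 336 and 301 CPM. Dppa3 (short), the maternal factor that protects DNA methylation in the zygote, had 3713, 3216 and 1820.0 CPM, and Dppa5a (short), an RNA-binding protein of pluripotent cells, had 3132, 2985 and 562 CPM. Both were lowest in clone8_1, as most short genes were. Sox2, the partner of POU5F1 on DNA, was at 12.5, 17.7 and 13.4 CPM, the lowest of the list. Per kilobase Sox2 was at 7.06 ± 1.34 and Pou5f1 at 419 ± 16.6, a ratio of 0.0145, 0.0214 and 0.0150 in the 3 libraries. Sox2 lies within another gene annotated on the same strand, and whether reads there were set aside as ambiguous was not tested.

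Of 12 genes of the naive epiblast, the state just before implantation, 11 were expressed, and the median over members was 6.36 log2 CPM. Nanog, the homeodomain factor that keeps ICM cells out of the endoderm, stood at 427, 602 and 705 CPM (578 ± 141), with clone4_1 the lowest. Tfcp2l1, a factor that acts downstream of LIF, had 483, 549 and 467 CPM. Klf5 and Klf4, zinc finger factors of naive cells, had 360.4, 423 and 243 CPM and 49.5, 66.8 and 54.6 CPM. Zfp42, which encodes REX1, had 269, 353 and 360.3 CPM, and Tbx3, a T-box factor, 313, 279.6 and 349 CPM. Esrrb, an orphan nuclear receptor, was at 42.8, 59.6 and 54.9 CPM. Prdm14, which represses FGF signalling genes and de novo methylation in naive stem cells, was at 23.7, 38.7 and 31.8 CPM. In each of these genes the highest library was less than 2 times the lowest. Klf2 was more dispersed, at 35.6, 47.5 and 14.5 CPM. Nr0b1, which encodes DAX1, was listed at 0.0495, 0.0311 and 0.0244 CPM, under the limit that a count of 0 allows, and was the 1 member of this list not expressed. No gene of the list was short.

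Genes of the formative epiblast, which appear around implantation, were mostly near 0. The 3 of 10 that were expressed were the de novo methyltransferases Dnmt3b (183, 244 and 179 CPM) and Dnmt3a (54.5, 94.3 and 77.6 CPM) and the homeobox gene Otx2 (30.9, 23.6 and 23.6 CPM). Fgf5, the classical marker of the implanted epiblast, had 0.223, 0.373 and 0.536 CPM. Pou3f1, a POU factor of the same stage, had 0.173, 0.870 and 0.219 CPM. Neither reached 1 CPM in any library.

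Of 16 primitive endoderm genes 10 were expressed, 4 reached 1 CPM in some libraries and 2 in none, and the median over members was 3.60 log2 CPM. Among all protein-coding genes 47.0% were expressed. Gata6, the factor that starts the endoderm programme, stood at 61.7, 56.6 and 77.7 CPM. Pdgfra, the PDGF receptor of endoderm precursors, stood at 26.5, 44.9 and 102 CPM. Gata6 was much alike in the 3 libraries, while Pdgfra differed 3.85-fold between the lowest and the highest of them. Sox17, which follows Gata6 in the embryo, stood at 0.297, 4.23 and 4.34 CPM, with clone4_1 far below the others. Gata4 had 1.29, 0.870 and 1.41 CPM. Sox7 had 0.0495, 0.373 and 0.0487 CPM, and Foxa2 0, 0.0622 and 0.0244 CPM, so the last of these were close to the limit of detection. Per kilobase Gata6 reached 0.0899, 0.0585 and 0.0686 of the level of Nanog. The basement membrane genes Col4a1 (19.6, 36.5 and 53.9 CPM) and Col4a2 (12.2, 16.2 and 38.8 CPM) encode the chains of collagen IV. Both had the same order of libraries as Pdgfra. That order was not shared by Sparc (90.3, 56.8 and 35.5 CPM), Lamb1 (97.9, 90.8 and 129 CPM) or Lama1 (3.91, 5.19 and 3.51 CPM). The endocytic genes Dab2, an adaptor, and Lrp2, the receptor megalin, had 765, 638 and 823 CPM and 397, 382 and 363 CPM. Per kilobase Dab2 was at 269.5 ± 34.4 and Lrp2 at 87.3 ± 3.83, against 20.2 ± 3.40 for Gata6. The typical transcript of Lrp2 is 4359 nt and its longest 15460 nt, so its level per kilobase depends on the length measure. The trophectoderm of the blastocyst also expresses Dab2 and Lrp2. Clone8_1 was the highest library in 7 of the 10 expressed members, where it was the highest in 43.1% of all expressed genes of 1000 nt or more. In bulk RNA fewer cells of a type and less RNA per cell cannot be told apart, here and in all that follows.

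Genes that mark the trophectoderm were abundant in these ICM libraries, although the outer epithelium had been removed. All 15 of the list were expressed, with a median over members of 6.56 log2 CPM, beside 6.36 for the naive epiblast list. Cdx2, the homeodomain factor of the trophectoderm, stood at 518, 484 and 543 CPM (515 ± 29.6). Gata3 had 985, 827 and 972 CPM, and Elf3, an epithelial ETS factor, 841, 856 and 843 CPM. The 3 libraries lay close together in all of these genes. Krt8 and Krt18, the keratins of simple epithelia, stood at 3830.4, 2583 and 3104 CPM and at 4119, 2767 and 3061 CPM. Per kilobase the ratio of Cdx2 to Pou5f1 was 0.545, 0.533 and 0.553 (0.544 ± 0.0098), the narrowest relative spread of the ratios computed here. The ratio of Cdx2 to Nanog moved more, at 1.08, 0.715 and 0.686. Eomes, a T-box factor of trophoblast progenitors, had 23.7, 33.6 and 29.4 CPM. Hand1, of later trophoblast, had 37.8, 66.4 and 41.9 CPM. Gata2 differed 3.75-fold, at 19.3, 53.8 and 14.3 CPM, and Elf5 4.62-fold, at 2.75, 12.3 and 2.66 CPM, both with clone4_2 the highest. Krt7 was highest in clone4_1, at 71.1, 21.5 and 23.7 CPM. The summed level of the list was 11614, 8964 and 9452 CPM, most of it keratin. Id2, Tead4 and Tfap2c of this list are not confined to the trophectoderm. Transcripts of trophectoderm markers were thus present beside those of the epiblast. Which cells they came from was not tested, nor was the part of trophectoderm RNA in the levels of other genes.

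Genes of the sealed and pumping epithelium that forms the blastocyst cavity were expressed in full (14 of 14, median 7.44 log2 CPM). Cldn4, a tight junction claudin, had 1816, 1336 and 1762 CPM, Cdh1, which encodes E-cadherin and is common to all cells of the blastocyst, 667, 677 and 629 CPM, and the water and glycerol channel Aqp3 582, 593 and 437 CPM. Cldn7 (short) had 586, 589 and 533 CPM. Aqp8 was the most dispersed, at 3.15, 18.7 and 11.3 CPM.

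**Figure D2:**
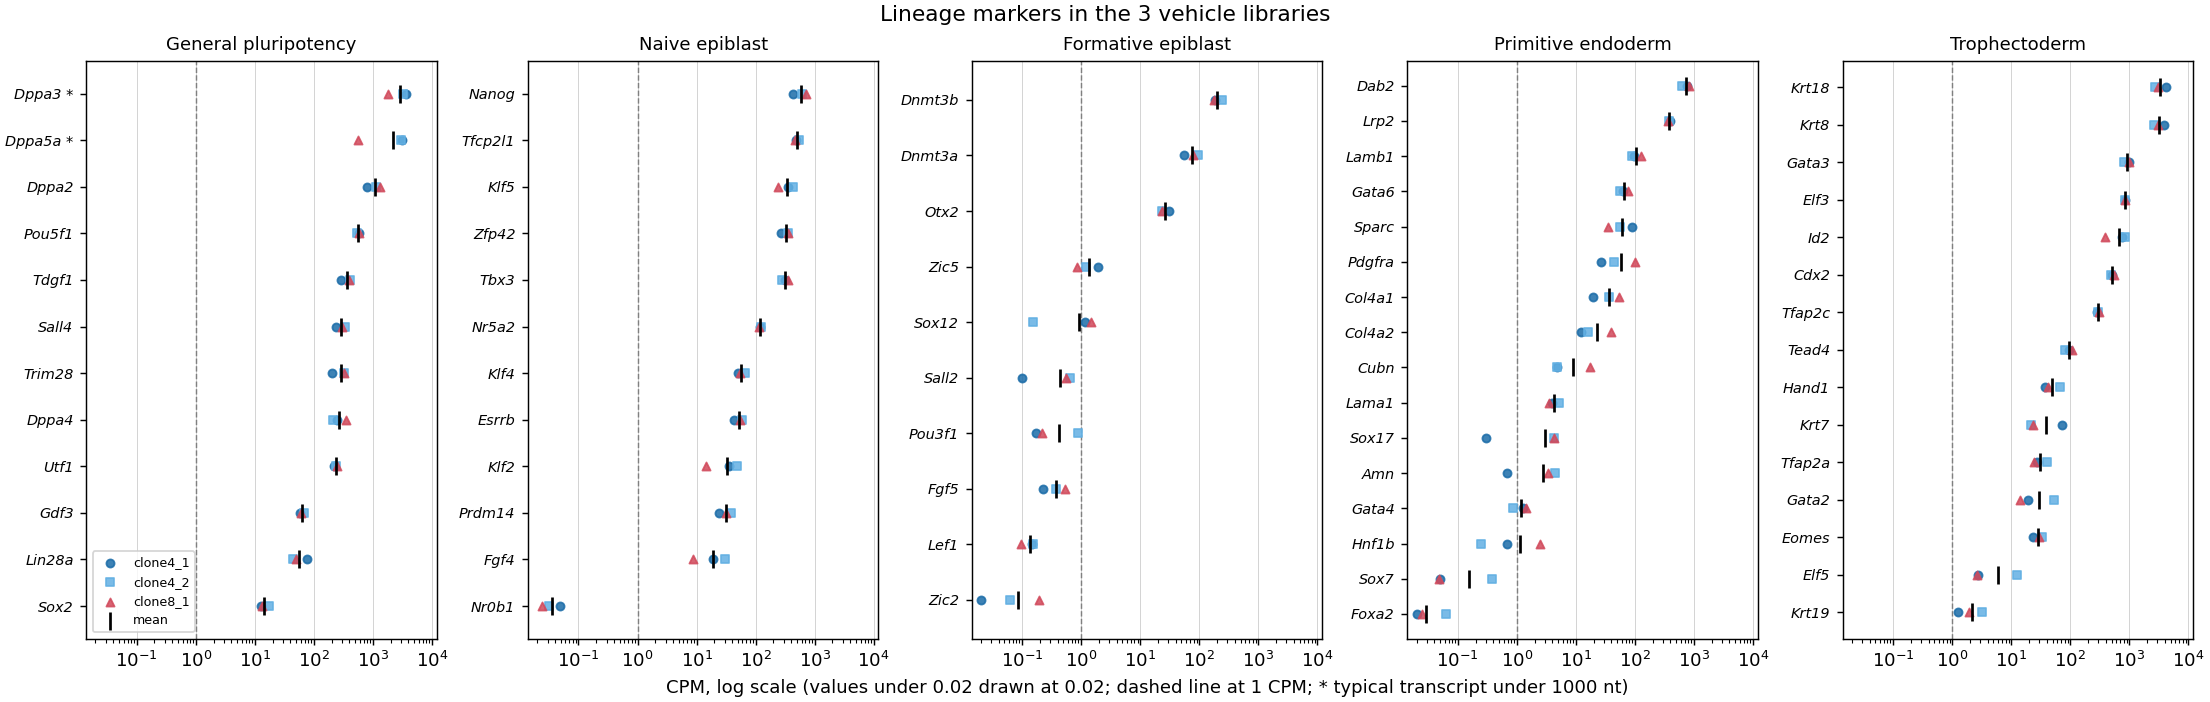
CPM on a log axis for the members of 5 marker lists, one gene per row; symbols show clone4_1, clone4_2 and clone8_1, vertical ticks the mean, the dashed line 1 CPM and asterisks short genes. General pluripotency, naive epiblast (except Nr0b1) and trophectoderm genes lie right of 1 CPM in all 3 libraries, as do 3 of 10 formative and 10 of 16 primitive endoderm genes.

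Markers of other stages and tissues were low. None of 10 genes of the cumulus cells and oviduct, 10 blood genes, 10 genes of later embryonic tissues and 10 genes of the 2-cell stage was expressed, while 2 of 10 fibroblast genes were. The 6 Zscan4 genes of the list, a family of the 2-cell stage, were at or below 0.124 CPM in every library. Tcstv3 (short), also of the 2-cell list, missed 1 CPM in clone8_1 alone, at 1.59, 1.83 and 0.0731 CPM. Tcstv1 had 0.471, 1.74 and 0.0244 CPM. Hbb-bs and Hbb-bt (both short), adult globins, Ptprc, the leukocyte antigen CD45, and Alb, serum albumin, had no count. The expressed fibroblast genes were Fbln1, an extracellular matrix protein, with 37.7, 74.6 and 51.6 CPM, and Thy1 (short), with 3.07, 2.70 and 1.83 CPM. The defining collagens Col1a2 and Col3a1 had no count and Col1a1 at most 0.570 CPM. Of 13 oocyte genes 4 were expressed. Ooep, a subunit of the subcortical maternal complex, had 59.0, 36.6 and 10.2 CPM. Padi6, of the same complex, had 2.67, 6.16 and 8.85 CPM, in the opposite order. The other expressed members, H1foo (1.07, 3.61 and 3.92 CPM) and Zp3 (4.56, 12.1 and 8.31 CPM), were also lowest in clone4_1. Of the members not expressed, all but Zar1 were highest in clone8_1.

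The sequence around the start sites of these genes differed with their level. Promoter windows of 300 bases, from 250 before to 50 after the start (RefSeq, build GRCm38.p6), were matched by symbol to 16478 protein-coding genes. A window was called CpG-rich where the dinucleotide CG was at least 0.6 times as frequent as its base composition gives and GC was at least 50%. CG reads the same on both strands. CpG-rich windows made up 10.0% of the 4173 genes with no count, 34.1% of those counted but not expressed, and 62.5% of expressed genes with a mean under 10 CPM. The share was 75.8% at 10 to 100 CPM, 79.3% at 100 to 1000 CPM and 77.0% at 1000 CPM or more, with 47.6% over all matched genes. Genes are not independent replicates, and these shares are a description. Over all expressed genes 73.4% of windows were CpG-rich. In the lists, where many members had no match, they were found in 3 of 6 matched general pluripotency genes, 4 of 9 naive genes and 6 of 11 trophectoderm genes, and in 11 of 11 genes of the Ras to ERK cascade, counts too small to set a list apart. The windows of 4 genes are printed so that these classes can be seen. They were chosen after their values were known, with each CG in capitals. Pou5f1 (chr17:35505782-35506081, plus strand, 11 CG, 0.374 of the composition value) and Nanog (chr6:122707239-122707538, plus strand, 4 CG, 0.192) are highly expressed genes of the epiblast whose windows are not CpG-rich. Cdx2 (chr5:147307200-147307499, minus strand, 18 CG, 0.731) has a CpG-rich window. Alb (chr5:90460620-90460919, plus strand, 3 CG, 0.272) had no count. For Pou5f1 and Nanog, which have 2 windows in RefSeq each, the upstream one is given.
Pou5f1: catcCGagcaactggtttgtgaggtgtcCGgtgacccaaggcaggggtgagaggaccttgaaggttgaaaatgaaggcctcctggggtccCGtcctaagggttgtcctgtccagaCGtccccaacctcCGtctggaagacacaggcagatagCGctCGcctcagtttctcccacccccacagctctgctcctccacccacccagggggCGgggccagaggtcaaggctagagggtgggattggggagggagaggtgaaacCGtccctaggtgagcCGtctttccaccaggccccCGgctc
Nanog: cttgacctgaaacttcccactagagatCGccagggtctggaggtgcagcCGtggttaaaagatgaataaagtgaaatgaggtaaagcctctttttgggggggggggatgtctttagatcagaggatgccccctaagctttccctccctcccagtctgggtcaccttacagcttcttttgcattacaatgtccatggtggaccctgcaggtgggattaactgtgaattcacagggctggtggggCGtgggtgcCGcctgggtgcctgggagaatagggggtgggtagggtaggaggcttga
Cdx2: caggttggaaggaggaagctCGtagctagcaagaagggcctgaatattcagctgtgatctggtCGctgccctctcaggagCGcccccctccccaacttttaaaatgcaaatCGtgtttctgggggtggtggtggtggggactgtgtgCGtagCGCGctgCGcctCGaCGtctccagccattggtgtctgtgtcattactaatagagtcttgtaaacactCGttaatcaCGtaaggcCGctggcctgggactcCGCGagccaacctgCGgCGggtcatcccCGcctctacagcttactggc
Alb: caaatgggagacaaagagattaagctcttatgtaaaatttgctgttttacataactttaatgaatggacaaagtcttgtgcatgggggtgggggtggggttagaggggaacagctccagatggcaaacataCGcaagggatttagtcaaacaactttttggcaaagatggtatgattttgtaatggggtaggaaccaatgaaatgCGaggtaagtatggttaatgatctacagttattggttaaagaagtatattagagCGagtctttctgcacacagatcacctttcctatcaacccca
The Nanog window holds few CG over its whole length and is nearer to Alb than to Cdx2 by this measure, at a mean level of 578 CPM against 515 CPM for Cdx2.

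**Figure D3:**
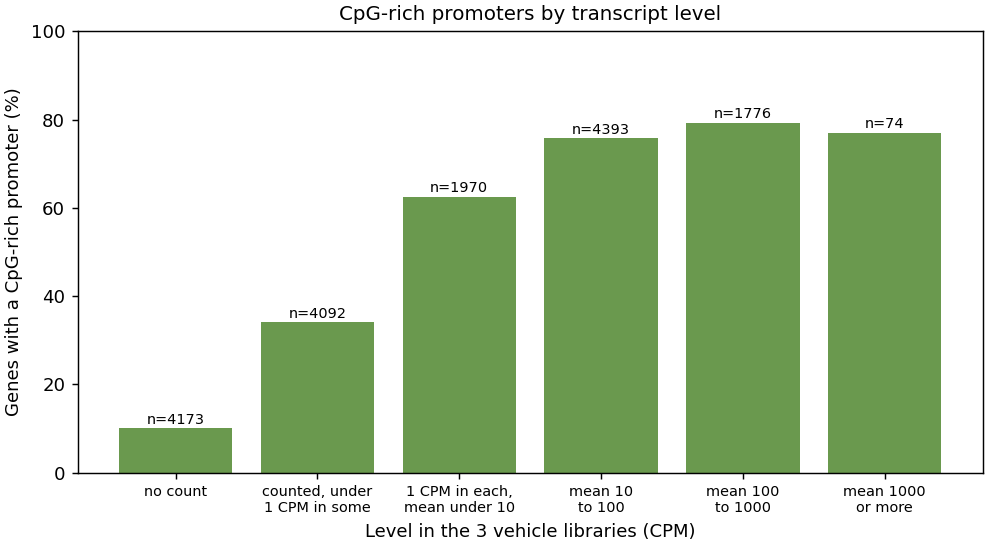
Share of protein-coding genes with a CpG-rich promoter window (y axis, percent) in 6 classes of level in the vehicle libraries (x axis, CPM), with the number of genes above each bar. The share climbs from 10.0% of genes with no count to 75.8% at a mean of 10 to 100 CPM and stays between 75.8% and 79.3% above that.

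Transcripts of the FGF pathway were present from ligand to effector. Of 22 FGF ligand genes 3 were expressed, where 47.0% of all protein-coding genes were. Fgf4, the ligand by which epiblast precursors signal to their neighbours, stood at 18.7, 29.9 and 8.60 CPM. Fgf10 stood at 8.94, 19.6 and 11 CPM and Fgf3 at 3.22, 2.49 and 2.44 CPM. Clone4_2 was the highest library for Fgf4 and Fgf10. In 6 ligand genes, among them Fgf2 (short), no library had a count, which allows up to 0.0743, 0.0933 and 0.0731 CPM, and 18 stayed under 1 CPM in every library.

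Of the receptors, Fgfr1 and Fgfr2 led. Fgfr1 stood at 41.8, 46.6 and 45.3 CPM and Fgfr2 at 53.4, 40.4 and 43.2 CPM. Per kilobase they were at 10.1 ± 0.563 and 12.1 ± 1.82, with a ratio of Fgfr2 to Fgfr1 of 1.49, 1.01 and 1.11. The annotated span of Fgfr2 overlaps other genes on both strands. Fgfr4 followed with 8.72, 16.5 and 6.26 CPM, and Fgfr3 was marginal with 0.619, 2.02 and 1.12 CPM. Klb, a coreceptor for endocrine FGFs, had 11.2, 4.63 and 8.94 CPM, while Kl, which encodes the related klotho, had no count. Among the adaptors, Frs2, the docking protein bound by the receptors, had 76.1, 62.5 and 80.9 CPM, Gab1, a docking partner of GRB2, 106, 95.2 and 114 CPM, and Ptpn11, the phosphatase SHP2, 102, 94.4 and 84.4 CPM. Shc1 varied least, at 106, 98.1 and 106 CPM. In all, 13 of 15 receptors and adaptors were expressed, beside 47.0% of all protein-coding genes.

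In the cascade below the receptors, 13 of 15 genes were expressed, and related genes were often unequal. Of the Ras genes given here, Nras had 158, 131 and 186 CPM and Hras 11.8, 12.2 and 5.63 CPM. Per kilobase Nras was at 59.7 ± 10.5 and Hras at 5.69 ± 2.12, a difference larger than the spread. Of the Raf kinases given here, Araf was at 66.7 ± 10.5 and Braf at 1.83 ± 0.358 CPM per kb. Map2k1 and Map2k2, which encode MEK1 and MEK2, did not differ beyond their spread, at 59.8 ± 6.33 and 63.6 ± 12.2 CPM per kb. Mapk3, which encodes ERK1, stood at 2.30, 7.83 and 5.22 CPM. Its lowest value was in clone4_1 and its highest in clone4_2. The scaffold genes Ksr1 and Ksr2 stayed under 1 CPM in every library.

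Of 16 feedback genes of the pathway 11 were expressed in these cultures under the receptor inhibitor, with a median over members of 1.78 log2 CPM, where the median was 0.077 over all protein-coding genes and 4.92 over expressed ones. Spry2, a Sprouty inhibitor of receptor signalling, had 82.4, 66.4 and 45.4 CPM. Dusp6, the cytoplasmic phosphatase of ERK, had 24.8, 48.2 and 41.9 CPM, and Dusp4, a nuclear one, 50.9, 19.6 and 56.6 CPM. Dusp4 was lowest in the library where Dusp6 was highest, clone4_2. Dusp10, which acts on p38 and JNK, was steady at 42.9, 47.8 and 50.1 CPM. Spry4 had 2.58, 3.30 and 5.85 CPM and Spry1 14.0, 15.2 and 9.53 CPM. Dusp7 had 0.0743, 1.65 and 2.2 CPM, the Spry3 value was at most 0.0311 CPM, and Dusp2 at most 0.272 CPM.

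Of 27 ETS factors, early response genes and related targets, 17 were expressed, beside 47.0% of all protein-coding genes. Etv5 stood at 87.3, 93.6 and 108 CPM, while its relatives Etv4 (0.0991, 0.373 and 0.195 CPM) and Etv1 (at most 0.780 CPM) did not reach 1 CPM. Of the early response genes, Fos had 63, 95.5 and 44.2 CPM, and Jun, its AP-1 partner, 81.3, 68.1 and 55.4 CPM. Egr1, a zinc finger gene switched on within minutes of ERK activity, had 2.45, 8.24 and 19.2 CPM, a 7.81-fold span with clone8_1 the highest. Ier2, another early response gene, had 128, 106 and 118 CPM. Myc had 49.4, 57.3 and 87.7 CPM. Egr2, Egr3, Ets1 and Fosl1 stayed under 1 CPM in each library.

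**Figure D4:**
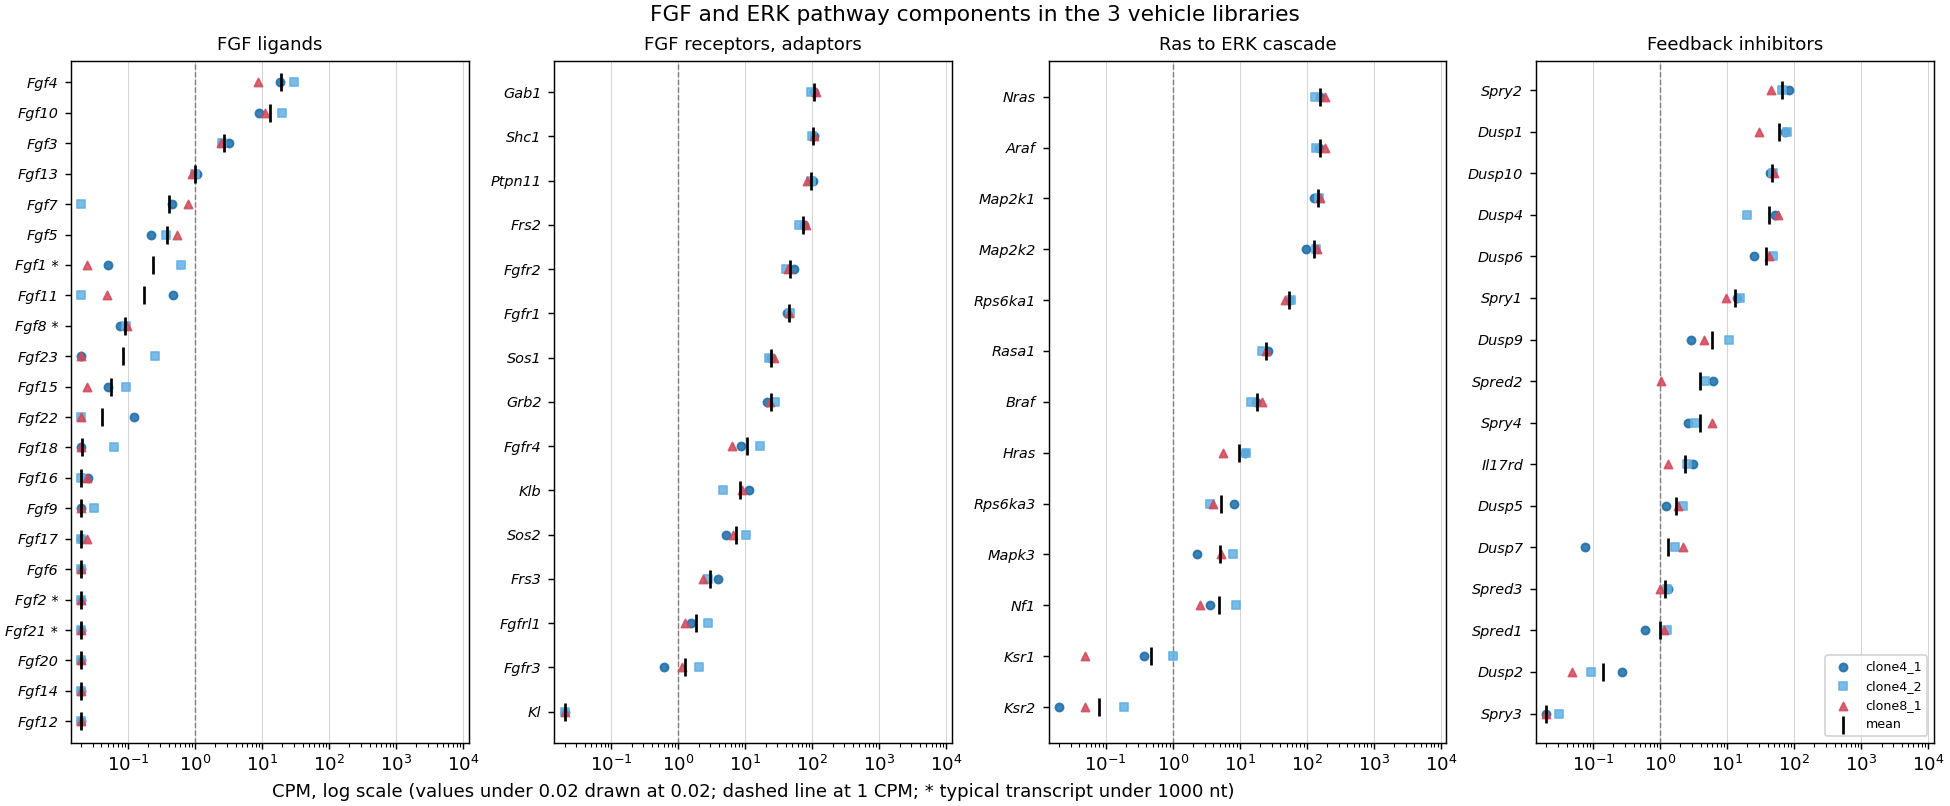
CPM on a log axis for FGF ligands, receptors and adaptors, the Ras to ERK cascade and feedback inhibitors, one gene per row; symbols show the 3 libraries, ticks the mean, the dashed line 1 CPM and asterisks short genes. Most ligands lie left of 1 CPM, whereas 13 of 15 receptors and adaptors and all cascade genes shown except Ksr1 and Ksr2 lie right of it in all libraries.

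Counts of expressed members of other pathways are given here beside the 47.0% of all protein-coding genes, and no pathway is set apart by them. For LIF, which maintains naive cells through STAT3, 8 of 10 genes were expressed. Stat3 had 230.2, 355 and 411 CPM, and Socs3, its feedback target, 31.8, 35.9 and 11.2 CPM. Il6st, the shared signalling receptor gp130, had 8.5, 12.8 and 16.4 CPM. Lifr, its partner for LIF, had 1.83, 14.3 and 0.804 CPM, so that clone4_2 stood alone. Lif itself had 11.7, 20.1 and 7.80 CPM.

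For BMP, 10 of 20 genes were expressed, close to the 47.0% of all protein-coding genes. Bmp4 had 1.14, 16.1 and 16.1 CPM, with clone4_1 far below the others, and Bmp2, Bmp6 and Bmp7 did not reach 1 CPM in all libraries. The receptor Bmpr1a had 21.6, 27.6 and 29.1 CPM. Of the SMADs that BMP receptors phosphorylate, Smad5 had 6.49, 7.43 and 5.80 CPM and Smad1 2.06, 0.466 and 0.536 CPM. The Id genes, common BMP targets, were unequal. Id2 and Id3 were at 518 ± 191 and 80.4 ± 9.31 CPM per kb, whereas Id1 was at 0.857 ± 0.388 CPM per kb and Id4 had at most 0.0311 CPM.

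For Nodal, 11 of 17 genes were expressed, yet the ligand was not among them. Nodal had 0.173, 0.0311 and 0.975 CPM, and its inhibitors Lefty1, Lefty2 and Cer1 stayed under 1 CPM in every library. The coreceptor Tdgf1, also called Cripto, had 291, 416 and 389.8 CPM, the related ligand Gdf3 57.7, 69.4 and 60.9 CPM, and the transducer Smad2 70.9, 66.0 and 87.7 CPM. Tdgf1, Gdf3 and Smad2 thus differed little between libraries in which the ligand and its inhibitors stayed under 1 CPM. Nodal and Lefty2 (0, 0.0933 and 0.682 CPM) were highest in clone8_1, while Lefty1 was highest in clone4_2. Cer1 had 0, 0.0622 and 0.0244 CPM, under the limit that a count of 0 allows.

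For Wnt, 17 of 28 genes were expressed. The ligands Wnt7b (60.1, 72.4 and 41.5 CPM), Wnt3a (24.4, 29.1 and 18.8 CPM) and Wnt6 (11.5, 25.6 and 11.3 CPM) were present, and Wnt1, Wnt2 and Wnt5a had no count. Ctnnb1, which encodes beta-catenin, had 44.3, 67.6 and 73.0 CPM. Axin2, a target and inhibitor of the pathway, had 4.58, 9.61 and 12.9 CPM. Of the DNA-binding partners Tcf7l2 had 81.8, 126 and 72.7 CPM, Tcf7l1, the repressor best known in naive stem cells, 2.45, 3.14 and 1.54 CPM, and Lef1 at most 0.155 CPM. Per kilobase Tcf7l2 was at 30.2 ± 9.25 and Tcf7l1 at 0.964 ± 0.327, apart by far more than their spread.

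The Hippo pathway separates outer from inner cells, since YAP1 with TEAD4 acts in the nucleus of outer cells. Of 19 genes 16 were expressed. Yap1 had 35.7, 40.4 and 37.2 CPM, its paralogue Wwtr1 (TAZ) 111, 77.2 and 149 CPM and Tead4 95.9, 80.9 and 107 CPM. Amot, which holds YAP1 in the cytoplasm of inner cells, had 24.9, 46.8 and 38.1 CPM, and Nf2 (Merlin), which acts with it, 103, 96.1 and 90.2 CPM. The kinases Lats1 and Lats2 were low, at 1.81, 5.41 and 6.31 CPM and 6.64, 4.88 and 5.82 CPM. The YAP targets Ccn1 and Ccn2 had 49.5, 46.9 and 19.7 CPM and 3.59, 0.746 and 8.90 CPM.

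All 10 genes of DNA methylation and its removal were expressed. Tet2 and Tet1, which oxidise methylcytosine, had 239, 202 and 235 CPM and 159.6, 193 and 167 CPM, and Tet3, the enzyme of the zygote, 2.13, 11.1 and 9.12 CPM. Uhrf1, which brings the maintenance enzyme to replicated DNA, had 179, 204 and 259.7 CPM. Dnmt1, that maintenance enzyme, was at 62.1, 68.4 and 81.8 CPM. Per kilobase Dnmt3b was 3.89, 4.69 and 2.89 times Dnmt1 and 5.75, 4.42 and 3.95 times Dnmt3a. The de novo gene was thus the highest of these methyltransferases in every library. Zfp57, which guards imprints, had 112, 131 and 163 CPM.

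Of 19 cell cycle genes 16 were expressed, with Ccnd3 far above the other D cyclins. Ccnb1, the mitotic cyclin B1, had 541, 417 and 668 CPM. Ccnd3 had 407, 390.3 and 424 CPM, whereas Ccnd1 had 3.69, 4.38 and 6.78 CPM and Ccnd2 stayed under 1 CPM. Per kilobase Ccnd3 was at 201 ± 8.33 and Ccnd1 at 1.32 ± 0.433. Cdkn1a, the inhibitor p21, differed 4.46-fold, with 219, 128 and 49.1 CPM and clone8_1 the lowest. Cdkn2a (short) was at most 0.0622 CPM.

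Of 18 genes of glucose uptake and glycolysis 17 were expressed. The transporter Slc2a3 had 1091, 1250.4 and 1129.9 CPM, and Slc2a1 181, 133 and 98.0 CPM. Hk2 had 274, 258 and 209 CPM. Aldoa, the aldolase of most tissues, had 1378, 1041 and 1703 CPM and Pkm, pyruvate kinase, 768, 667 and 957 CPM. Ldha and Ldhb, the lactate dehydrogenase subunits, were low beside them. Per kilobase Ldha was at 14.0 ± 4.76 and Ldhb at 2.69 ± 1.85, against 357 ± 65.7 for Pkm.

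Of the 13 protein genes of the mitochondrial genome 7 were expressed. All genes of that genome, RNA genes such as mt-Rnr2 included, took 1.67%, 1.63% and 1.75% of counts. mt-Co1, a subunit of cytochrome oxidase, had 3834, 3788 and 5241 CPM and mt-Cytb, of complex III, 4797, 3823 and 5298 CPM. mt-Nd1 (short), of complex I, had 3981, 4085 and 2533 CPM. The other 6, all short and adjacent in the mitochondrial genome, namely mt-Co2, mt-Atp8, mt-Atp6, mt-Co3, mt-Nd3 and mt-Nd4l, were listed with at most 1 count in a library. Each is an essential respiratory subunit, so these values are given as listed and not as absence of the RNA.

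For most longer genes the 3 libraries differed little. Over expressed genes of 1000 nt or more, the median SD of log2 CPM was 0.299 and the median ratio of the highest to the lowest library 1.49. For short genes these were 0.849 and 3.01. Pearson's r of log2 CPM across the 9467 longer genes, which share one annotation and are not replicates, was 0.964 between the clone 4 libraries, 0.955 between clone4_1 and clone8_1 and 0.956 between clone4_2 and clone8_1. The biological coefficient of variation, edgeR's common estimate of relative spread beyond counting error, was 0.330 over all expressed genes, 0.292 for longer and 0.590 for short ones. Without clone8_1 it was 0.269 for longer and 0.277 for short genes, nearly the same for both lengths.

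**Figure D5:**
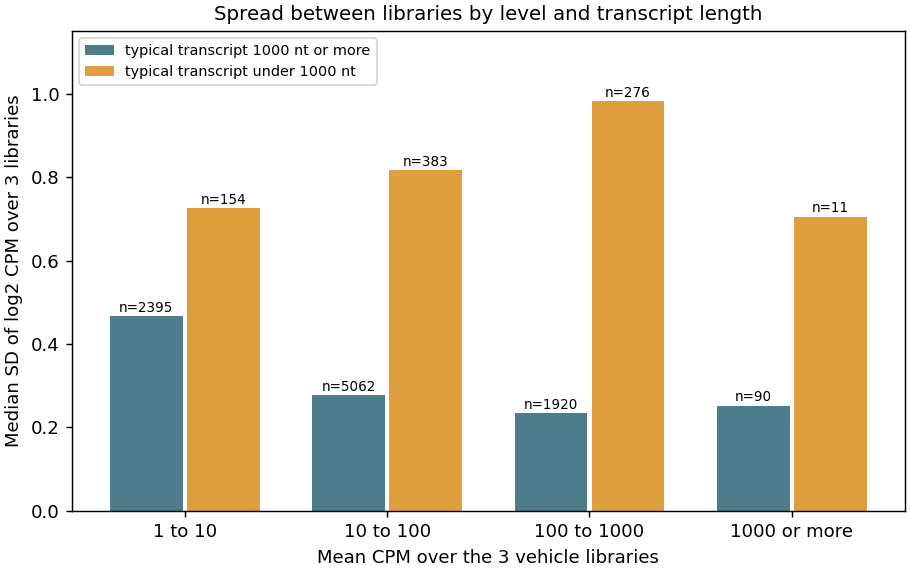
Median SD of log2 CPM over the 3 vehicle libraries (y axis) for expressed protein-coding genes in 4 classes of mean CPM (x axis), split by typical transcript length, with the number of genes above each bar. Longer genes fall from 0.466 at 1 to 10 CPM to 0.235 at 100 to 1000 CPM, while short genes lie between 0.705 and 0.983 in all classes.

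Of 7072 longer genes with a mean of at least 10 CPM, 860 (12.2%) had a highest library at least 2 times the lowest. Clone8_1 was the library farthest from the other two in 425 of them (319 low and 106 high), clone4_2 in 225 and clone4_1 in 210. The cut at 1000 nt does not remove the length deficit of clone8_1. It was at least 2-fold below the clone 4 mean in 18.0% of genes at 1000 to 1200 nt. That share was 7.89% at 1200 to 1400 nt and 2.17% from 4000 nt upwards. Rps20, longer by its typical transcript of 3706 nt, stood at 745, 635 and 104 CPM. Between the clone 4 libraries 300 genes (4.24%) were at least 2-fold apart, and between clone8_1 and either of them 492 (6.96%) and 464 (6.56%). The 10 most dispersed genes were Bmp4, Fam98b, Oas1f, Sema3b, Tpm3-rs7, Car4, Morc1, Tdrd12, Herpud1 and Sem1, with SDs of log2 CPM from 1.68 to 2.17. Oas1f, of the 2-5A synthetase family of antiviral genes, stood at 7.5, 7.55 and 76.9 CPM. Sem1, a small proteasome subunit whose typical transcript is 1472 nt and longest 2250 nt, stood at 278, 223 and 33.3 CPM. Each of these is set by clone8_1, high in the former and low in the latter. Herpud1, a target of the stress response of the endoplasmic reticulum, stood at 3.22, 33.3 and 14.4 CPM. Morc1 and Tdrd12, germline genes that act in transposon silencing, stood at 3.89, 34.1 and 4.02 CPM and at 7.55, 1.87 and 21.6 CPM, with clone4_2 the highest library in the former and the lowest in the latter. Sema3b, a semaphorin, and Car4, a carbonic anhydrase, were both low in clone8_1, at 14.3, 20.4 and 1.73 CPM and 22.5, 36.2 and 3.10 CPM. At the other end, Nde1, a dynein regulator of the spindle, had 44.8, 44.7 and 44.7 CPM, and Pcsk7, a proprotein convertase, 37.8, 37.6 and 37.7 CPM. Ttf2, Fam193b, Incenp, Chuk, Myg1, Eva1a, Nip7 and Trim13 completed the 10 steadiest genes, with SDs of log2 CPM of at most 0.0095.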

How the data were processed

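RNA was measured in 3 vehicle libraries of pooled mouse ICMs. The authors deposited whole-number counts per gene for all 7 libraries in 1 table. bcl2fastq 2.19.1, STAR 2.5.3a and the mm10 build are named in the submitters' processing notes. The counter, its strand setting, duplicate handling and unique molecular identifiers are not given in the sources used here. Reads from overlapping genes may therefore be split or shared: 166 of 458 genes of the lists used here overlap a gene on the other strand and 101 one on the same strand. Of 52636 gene identifiers 52489 matched GENCODE M21, which gave symbols, types and lengths; the 147 others took at most 0.0082% of counts.

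From the counts, CPM was computed with TMM factors among the 3 libraries (edgeR 4.0.16, R 4.3.3). Log2 CPM used a prior count of 2. The typical transcript length is the median over a gene's protein-coding basic-set transcripts. Where a gene had none, all its basic-set transcripts were used, or else all its transcripts. Spread was taken as the SD of log2 CPM and as edgeR's common dispersion with an intercept only, checked on simulated counts. No test was run, since the 3 libraries form 1 group. The gene lists and the choice of libraries were made with earlier results of these data known. Named genes were the 20 highest by CPM, the 10 highest by CPM per kb, members of the lists, and the 10 most and 10 least dispersed longer genes with a mean of at least 10 CPM. Alternatives were other scalings, thresholds, length measures and leaving out each library in turn. Python 3.11.15, pandas 2.3.3 and matplotlib 3.10.9 were used for tables and plots. A few genes of the lists enter the counts but are not reported here.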

Additional observations from a re-analysis of the deposited data

How the results depend on the processing

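No paired analysis was possible because the results come from no test. Scaling by DESeq2 size factors, by library size alone, by TMM over all 7 libraries or by TMM from longer genes (added after seeing the data) moved no summary value or list beyond the limits set for it; 1 single gene, Nde1, moved by more than its small SD under TMM over all 7. Of 492 single-gene values 10, 9 and 11 moved by more than their SD without clone4_1, clone4_2 and clone8_1, all of them Elf3 or one of the 10 steadiest genes. Leaving out each library in turn gave 296 to 490 genes at least 2-fold apart (860 with all 3, since the range over 2 libraries is narrower) and a median spread of 0.215 to 0.288. The short-gene log2 difference, which needs clone8_1, was -1.58 to -1.28 without one or the other clone 4 library. Leaving out each library in turn gave 0 to 1 expressed genes of later tissues and of the 2-cell stage, the 2-cell gene only without clone8_1. The median log2 CPM ranged over 4.48 to 4.62 for FGF receptors and adaptors, 3.5 to 3.82 for Nodal, 5.39 to 5.78 for the cell cycle and 1.63 to 1.98 for feedback genes. It ranged more widely for primitive endoderm genes (3.03 to 3.94) and ribosomal proteins (8.16 to 9.41). The SD between library medians was also larger there, at 0.916 and 1.36, so these shifts stayed within the limits set. A threshold of 0.5 CPM gave 2 genes of later tissues. One of 5 CPM gave 6 feedback, 10 early response, 1 oocyte and 1 fibroblast gene. Without a filter the median spread was 0.440. A mean of at least 1 CPM gave 2664 genes 2-fold apart, and all lengths 1337. With the longest transcript as the length, the short-gene difference was -1.88 and Ptma (short) was no longer the highest gene per kb. List medians on the log2 CPM per kb scale, another quantity, were 7.56 (general pluripotency), 4.98 (naive), 1.07 (primitive endoderm), 5.63 (trophectoderm), 5.68 (blastocoel epithelium), 1.59 (FGF receptors and adaptors), 2.45 (Ras to ERK), -0.11 (feedback), 0.47 (early response), 1.93 (LIF), 0.028 (BMP), 2.15 (Nodal), 0.24 (Wnt), 3.20 (Hippo), 4.65 (DNA methylation), 2.33 (cell cycle), 5.52 (glycolysis) and 8.56 (mitochondrial). Clone 8 has 1 vehicle library, which limits what its spread can show.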

Other observations

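Esr1 and Gt(ROSA)26Sor, tied to the construct by its inducer and its name, gave reads in all 3 libraries. Esr1, the estrogen receptor gene, was at 5.85, 1.21 and 2.49 CPM in clone4_1, clone4_2 and clone8_1, with clone4_1 the highest. Gt(ROSA)26Sor (short), the noncoding gene of the Rosa26 locus, was at 3.07, 2.46 and 4.22 CPM. Whether any of these reads came from the inserted construct was not tested.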
